A study of Mus musculus with 6 samples.

Results

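The SLC25 family holds carrier proteins, most of them in the mitochondrial inner membrane. Its rows were taken from a count table of mouse leukaemic cells by their symbols, Slc25a followed by a number. The rule matched 47 of 53733 named rows, and 35 of the 47 passed the filter on low counts and were tested. The cells were 1 mouse acute myeloid leukaemia line, made by giving foetal liver cells a retroviral vector for luciferase and MLL-AF9, a fusion oncogene expressed throughout, and a second vector from which a doxycycline-responsive promoter (TRE-tight) drives DsRED, a fluorescent protein, and FLT3-ITD, a receptor tyrosine kinase made constantly active by an internal tandem duplication. The cells were injected into the tail vein of NSG mice, which are immunodeficient, and doxycycline was given in food and water during 96 h of engraftment. In the ON group (3 mice) doxycycline was kept, so that both oncogenes stayed expressed; in the OFF group (3 mice) it was withdrawn for 48 h to deplete FLT3-ITD, while MLL-AF9 remained in both. Live leukaemic cells were sorted out of the marrow, 1 library per mouse, and sequenced from the 3′ ends of mRNAs. The labels name no age. All 6 libraries come from 1 line, so differences between leukaemias were not sampled. The groups differ in doxycycline as well as in FLT3-ITD, so effects of the drug and of the oncogene cannot be told apart.

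Carriers of this family move metabolites that cannot cross the inner membrane unaided, among them ADP and ATP, phosphate, amino acids, nucleotides, cofactors and iron. Most share a repeated domain of paired membrane helices, which encloses a cavity that opens to one side at a time. Those of the inner membrane reach it through the TIM22 import complex. In dividing myeloid cells they link the matrix, where folate, haem and iron-sulfur cluster chemistry takes place, to synthesis in the cytosol.

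Depth ranged from 8335234 to 9316361 counts per library, and a single count equalled 0.11 to 0.124 CPM (library-size-scaled counts, with TMM factors). A first principal component of log2 CPM (67.6% of the variance) parted the groups, and OFF replicate 3 stood apart from the other OFF libraries on the second (-29.3 against 23.9 and 14.4). Of 10 myeloid leukaemia markers 9 were tested; Kit was at or near 0 in every library (at most 0.57 CPM), whereas Hoxa9, a target of MLL-AF9, lay between 324 and 361 CPM. The mouse Flt3 row, whose 3′ tags may lie outside the transgene's transcript and so do not check the labels, gave a mean of 5.67 CPM in ON and 6.83 CPM in OFF (0.27, adjusted p = 0.387 by edgeR). Of 13652 rows tested across the genome, 34.8% passed at an adjusted p of 0.05 by edgeR's quasi-likelihood test, 17.5% lower and 17.3% higher in OFF. OFF values did not overlap ON values in 48.3% of rows.

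After withdrawal of doxycycline 9 of the 35 tested members fell and 8 rose. Calls over all tested rows were also split about evenly, 17.5% being lower and 17.3% higher in OFF. The 17 calls make 48.6% of tested members, against 34.8% of all tested rows. Among rows with a mean of at least 5 CPM the shares were 44.4% of 27 members and 38.3% of 10122 rows. The median log2 fold change (OFF minus ON throughout) was -0.06 for the members and 0.00 for all rows, and the medians of its absolute size were 0.38 and 0.33. These shares are descriptions, with no list test. Leaving out 1 library at a time gave 5 to 9 lower and 6 to 8 higher members; the 5 came without ON replicate 2. The median lay between -0.09 and 0.09, the highest value without OFF replicate 1.

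**Figure D1:**
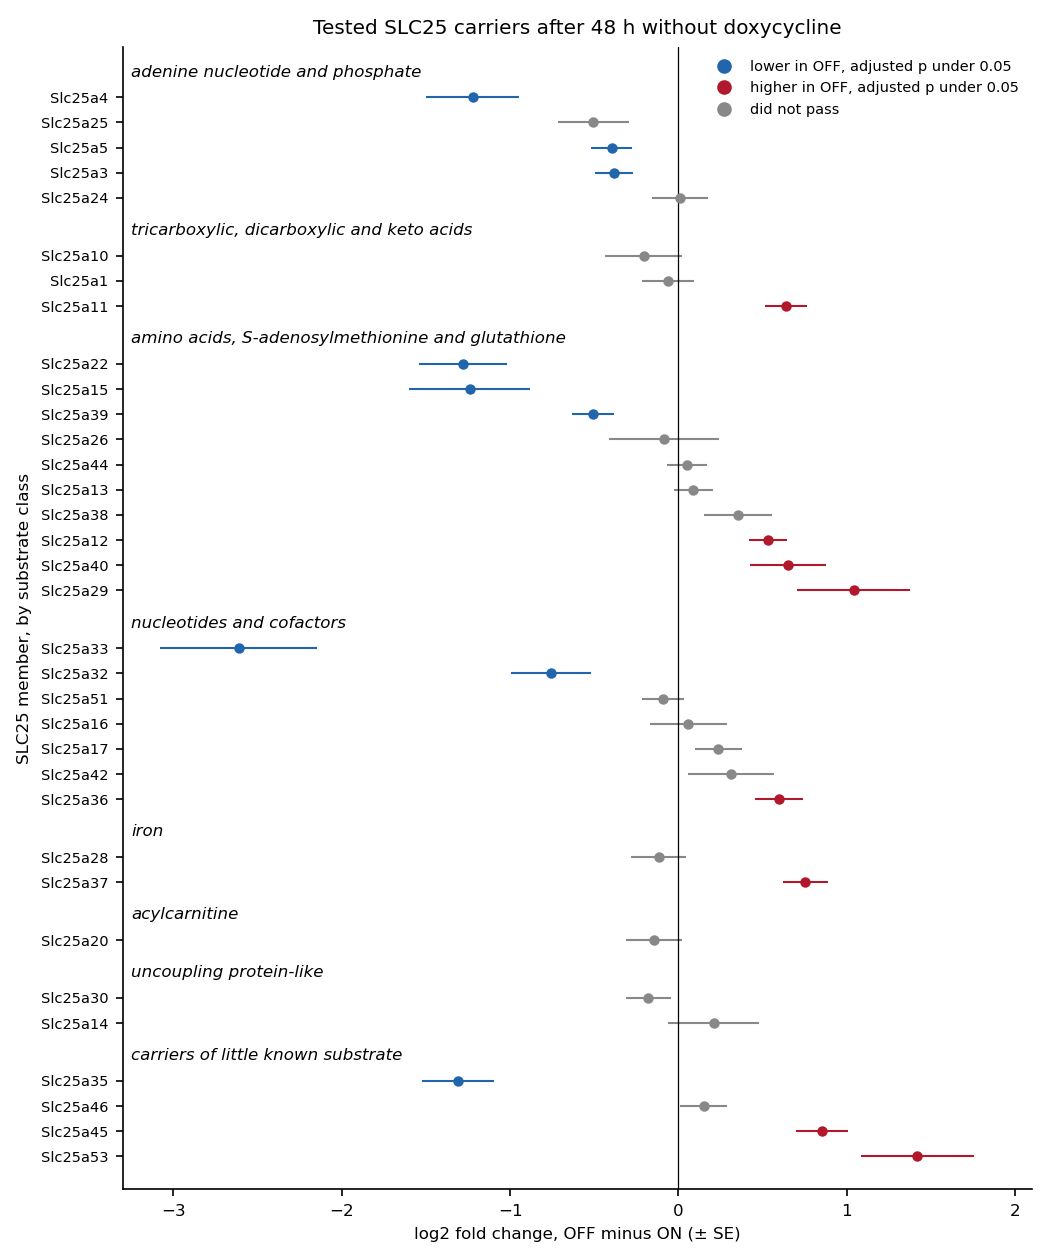
Log2 fold change (OFF minus ON, x axis, ± SE from edgeR, 3 libraries per group) of the tested carriers reported by name, grouped by substrate class on the y axis and coloured by whether they passed an adjusted p of 0.05. The 9 members that fell span -2.61 (Slc25a33) to -0.38 (Slc25a3), and the 8 that rose span 0.53 (Slc25a12) to 1.42 (Slc25a53).

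Of 5 tested carriers of adenine nucleotides and phosphate 3 fell and none rose (median -0.40), beside 17.5% and 17.3% of all tested rows. Slc25a3, the phosphate carrier that feeds ATP synthase (chromosome 10, 91116574 to 91124059, minus strand, GRCm38), gave 282, 319 and 279 CPM in ON against 229, 199 and 248 CPM in OFF. Every OFF library was below every ON library, and the fall was 1.30-fold (log2 scale -0.38, SE 0.11, adjusted p = 0.0147 by edgeR). Slc25a5, the ADP/ATP exchanger of dividing cells (chromosome X, 36795651 to 36798807, plus strand), gave 229, 268 and 241 CPM in ON against 164, 177 and 220 CPM in OFF (-0.40, SE 0.12, adjusted p = 0.0202 by edgeR). Here too the groups did not overlap, though OFF replicate 3 came close to ON replicate 1. Both calls were lost without OFF replicate 2 or ON replicate 2 (adjusted p = 0.0766 and 0.105 for Slc25a3, 0.0884 and 0.127 for Slc25a5), and that of Slc25a5 also without ON replicate 3 (0.0574). Pseudogenes close to these genes could share reads with them; the row Slc25a5-ps held 2 to 10 counts per library.

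Slc25a4, the ADP/ATP exchanger best known from heart and muscle (chromosome 8, 46206797 to 46211284, minus strand), fell 2.33-fold. ON libraries had 10.7, 9.91 and 9.92 CPM and OFF libraries 7.0, 3.45 and 2.64 CPM (-1.22, SE 0.28, adjusted p = 0.00395 by edgeR). The ON libraries lay close together while the OFF libraries were spread, with OFF replicate 1 nearest to ON. The calcium-regulated ATP-Mg/phosphate carriers gave no call. Slc25a25 had all 3 OFF libraries (4.22, 4.23 and 4.40 CPM) below all ON libraries (6.85, 5.92 and 5.46 CPM) without passing (-0.50, adjusted p = 0.0797), and Slc25a24 gave 0.01 (adjusted p = 0.969). Slc25a23 was not tested, with 6 to 11 counts per library.

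The outer membrane channels that metabolites pass before reaching the carriers, and the genes that import the carriers, were counted in the same way. For every class and list counted here and below, the shares over all tested rows were 17.5% lower and 17.3% higher. These lists were chosen with earlier results of these data known, and no list test was run. All 3 VDAC channel genes fell by a little (Vdac1 -0.32, Vdac2 -0.33 and Vdac3 -0.29, adjusted p = 0.0312, 0.032 and 0.0428). None of the 3 passed without OFF replicate 2 or without any 1 ON library, nor with a replicate block. Of 13 genes of the TOM receptors, small TIM chaperones and TIM22 complex that bring carriers to the inner membrane, 8 fell, none rose and 5 did not pass (median -0.52). The small chaperones Timm9 (36.4 to 12.3 CPM, -1.57), Timm8a1 (-1.59) and Timm10 (-1.36) changed most, with adjusted p = 1.03e-06, 3.77e-06 and 2.32e-05. The pore Timm22 itself gave -0.41 without passing (adjusted p = 0.0639).

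Carriers of nucleotides and cofactors held the largest fall in the family. Slc25a33, which brings pyrimidine nucleotides into the matrix (chromosome 4, 149744036 to 149774277, minus strand), had 19, 43 and 21 counts in ON and 6, 2 and 6 in OFF. These equal 2.2, 4.90 and 2.60 CPM against 0.67, 0.22 and 0.66 CPM, with no overlap and a fitted fall of 6.11-fold (log2 scale -2.61, SE 0.47, adjusted p = 5.85e-04 by edgeR). The size of the fall is loosely set, since OFF replicate 2 is below 3 counts. Slc25a36, its paralog for pyrimidine and guanine nucleotides (chromosome 9, 97074961 to 97111157, minus strand), moved the other way. It rose from 13.6, 16.9 and 15.5 CPM in ON to 20.1, 24.2 and 25.2 CPM in OFF (0.60, SE 0.14, adjusted p = 0.00478 by edgeR). Both calls held in every other setting tried in which the gene was tested.

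Because 1 member of this pair fell and the other rose, their promoter letters are shown, each the upstream part of a RefSeq window around the annotated start (GRCm38.p6). The 2 lines below give Slc25a33 at chr4:149774270-149774517 and Slc25a36 at chr9:97111158-97111291, both on the minus strand. Capitals mark CACGTG, the E-box that MYC and related factors can bind, and, in Slc25a36 alone, TTCNNNGAA, the STAT element.
Slc25a33: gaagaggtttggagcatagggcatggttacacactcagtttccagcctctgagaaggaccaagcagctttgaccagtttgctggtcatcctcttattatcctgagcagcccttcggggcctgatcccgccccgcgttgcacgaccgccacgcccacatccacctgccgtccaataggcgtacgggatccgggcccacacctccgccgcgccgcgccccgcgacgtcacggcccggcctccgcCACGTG
Slc25a36: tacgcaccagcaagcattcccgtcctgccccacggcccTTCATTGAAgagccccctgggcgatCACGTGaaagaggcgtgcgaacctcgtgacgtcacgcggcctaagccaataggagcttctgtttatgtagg
The E-box lies 8 bases before the RefSeq start of Slc25a33 and 187 bases before that of Slc25a36; GENCODE places the starts 10 and 116 bases further upstream. The Slc25a36 line therefore stops at the GENCODE start, and the Slc25a33 line runs past it to the end of the E-box, which lies after the GENCODE start and before the RefSeq start. Searched on both strands in windows from 250 bases before to 50 after the start, CACGTG was held by 6 of 27 tested members with a window, namely Slc25a1, Slc25a13, Slc25a14, Slc25a15, Slc25a33 and Slc25a36. Of all 32851 windows 7.15% held it, and of 8726 tested genes with a window 12.2%. Of the 6 members 2 fell, 1 rose and 3 did not pass, each by its own test. TTCNNNGAA was in Slc25a36 only (8.18% of tested genes), and TGATGNAA, the core of the ATF4 element, and the palindromic NRF1 element were in none of the 27 (2.83% and 2.53% of tested genes). The motifs do not overlap in the lines shown. A match describes letters only. Of 5 tested regulators of mitochondrial biogenesis 2 fell, Myc (22.3 to 7.46 CPM, -1.58, adjusted p = 6.05e-06 by edgeR) and Pprc1 (-1.37), and none rose, Nrf1 giving -0.09.

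Slc25a32 carries folate and flavin into the matrix (chromosome 15, 39091231 to 39112716, minus strand). It gave 7.42, 8.88 and 9.18 CPM in ON and 3.22, 6.46 and 5.39 CPM in OFF, a fall of 1.69-fold (-0.76, SE 0.24, adjusted p = 0.0223 by edgeR). OFF replicate 1 was the lowest library, and the call was lost without it (adjusted p = 0.06) and without ON replicate 2 or 3 (0.0875 and 0.0814). Of 6 tested genes of mitochondrial folate enzymes and the glycine cleavage system (Gcsh and Dld), 5 fell (median -0.98), beside 17.5% of all tested rows. Mthfd2 stood at 107, 137 and 147 CPM in ON and 43.2, 32.5 and 34.3 CPM in OFF (-1.83), and Shmt2 and Gcsh gave -1.25 and -1.71.

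Other cofactor carriers did not pass. Slc25a51, the NAD carrier, gave -0.09, and the coenzyme A carriers Slc25a16 and Slc25a42 gave 0.06 and 0.31. Slc25a17, a peroxisomal cofactor carrier, had all OFF libraries (15.5 to 17.1 CPM) above all ON libraries (12.8 to 14.9 CPM) without passing (0.24, adjusted p = 0.205). Among genes of mitochondrial nucleotide salvage and DNA upkeep, 2 of 10 fell and 2 rose, beside 17.5% and 17.3% of all tested rows. The kinases Tk2 (8.95 to 16.9 CPM, 0.91) and Dguok (10.1 to 19.1 CPM, 0.92) rose, and the single-strand DNA binding protein Ssbp1 (-0.64) and the helicase Twnk (-0.75) fell. Without ON replicate 2 or 3, 1 of the 10 was called lower.

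Amino acid and glutathione carriers went both ways, with 3 of 10 tested members lower and 3 higher, beside 17.5% and 17.3% of all tested rows. Slc25a22, a glutamate carrier (chromosome 7, 141429744 to 141437892, minus strand), fell 2.43-fold, from 6.62, 8.77 and 5.33 CPM in ON to 2.44, 2.56 and 3.52 CPM in OFF (-1.28, SE 0.26, adjusted p = 0.00155 by edgeR). Slc25a15, the ornithine carrier (chromosome 8, 22375551 to 22398597, minus strand), fell 2.36-fold, from 5.71, 6.72 and 4.59 CPM to 0.89, 2.67 and 3.63 CPM (-1.24, SE 0.36, adjusted p = 0.0159 by edgeR). In both genes the groups did not overlap. The call of Slc25a15 was lost without ON replicate 1 or 2 or OFF replicate 2 (adjusted p = 0.0598, 0.0854 and 0.0538) and by limma on the authors' log2 table (0.062). These 2 members, with Slc25a29, Slc25a33 and Slc25a53, had means under 5 CPM, and their values are given because they passed.

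Slc25a12, 1 of the 2 aspartate/glutamate exchangers of the malate-aspartate shuttle (chromosome 2, 71271063 to 71367749, minus strand), rose 1.45-fold. Its values were 57.2, 57.6 and 52.5 CPM in ON and 73.7, 78.9 and 89.8 CPM in OFF (0.53, SE 0.11, adjusted p = 0.00199 by edgeR). Its paralog Slc25a13 gave 72.3, 58.1 and 68.5 CPM in ON and 70.5, 67.0 and 73.9 CPM in OFF, overlapping and without passing (0.09, adjusted p = 0.581). Slc25a11, the 2-oxoglutarate/malate carrier that completes the shuttle (chromosome 11, 70644196 to 70647479, minus strand), rose 1.56-fold, from 42.0, 35.9 and 34.6 CPM to 54.3, 54.1 and 66.7 CPM (0.64, SE 0.12, adjusted p = 0.00118 by edgeR). Its exons share 189 bases with Rnf167 on the opposite strand, 3095 bases from its 3′ end, and Rnf167 also rose (0.95). The shared bases lie at the 5′ end of Slc25a11, whereas tags come from near 3′ ends. The strand setting of the counting is not stated.

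Enzymes of the shuttle went both ways. The transaminases Got1 (13.9 to 7.97 CPM, -0.80, adjusted p = 0.00347) and Got2 (-0.49) and the mitochondrial malate dehydrogenase Mdh2 (-0.63) fell, whereas the cytosolic Mdh1 rose (36.0 to 56.1 CPM, 0.64). The citrate carrier Slc25a1 gave -0.06 (adjusted p = 0.795) and Acly, which splits exported citrate, 0.01 (adjusted p = 0.94). The dicarboxylate carrier Slc25a10 gave -0.21 (adjusted p = 0.523).

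The glutathione carriers parted. Slc25a39 (chromosome 11, 102402985 to 102407946, minus strand) had 82.0, 83.1 and 72.8 CPM in ON and 62.4, 46.2 and 58.9 CPM in OFF, a fall of 1.42-fold (-0.51, SE 0.13, adjusted p = 0.00581 by edgeR). Slc25a40 (chromosome 5, 8422850 to 8454797, plus strand) rose from 4.68, 4.56 and 3.85 CPM to 6.0, 8.58 and 6.05 CPM (0.65, SE 0.23, adjusted p = 0.035 by edgeR). Neither gene had overlapping groups, but the call of Slc25a40 was lost without OFF replicate 2 (adjusted p = 0.174), without any 1 ON library (0.0753 to 0.13) and with DESeq2 (0.0762). Both subunits of the enzyme that starts glutathione synthesis, Gclc (-0.68) and Gclm (-0.52), fell, and the peroxidases Gpx1 (0.35) and Gpx4 (0.39) rose. Of the 7 glutathione genes none was called higher without ON replicate 2, and 1 without ON replicate 1 or 3.

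Slc25a29, a carrier of basic amino acids, rose from 1.37, 1.59 and 0.87 CPM to 2.33, 2.56 and 3.08 CPM (1.04, SE 0.34, adjusted p = 0.0268 by edgeR). That call was lost in 6 of 12 other settings, among them DESeq2 (0.0764), limma on the authors' log2 table (0.062) and the omission of OFF replicate 2 or 3 or ON replicate 1 or 3 (0.0659, 0.0625, 0.0741 and 0.129). Slc25a38, the glycine carrier that serves haem synthesis, gave 0.35 without passing (adjusted p = 0.19). Slc25a26 for S-adenosylmethionine gave -0.08 and Slc25a44 for branched-chain amino acids 0.05. Exons of Slc25a26 share 144 bases, reaching its 3′ end, with Lrig1 on the opposite strand. Lrig1 had a mean of 1.57 CPM against 2.44 CPM for Slc25a26 and did not pass (-0.22). Reads of these 2 genes may not be told apart.

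Of the mitoferrins, which bring iron into the matrix, Slc25a37 rose and Slc25a28 did not pass. Slc25a37 (chromosome 14, 69241848 to 69285112, minus strand) had 62.4, 64.9 and 69.6 CPM in ON and 88.8, 112 and 131 CPM in OFF, 1.69-fold higher (0.75, SE 0.13, adjusted p = 5.67e-04 by edgeR). Slc25a28 gave 8.79, 10.3 and 10.8 CPM in ON and 8.88, 9.69 and 8.91 CPM in OFF (-0.12, adjusted p = 0.62). In the list of haem and iron-sulfur cluster genes 4 of 14 rose and 2 fell, beside 17.3% higher and 17.5% lower among all tested rows. Fech, which inserts iron into haem (18.1 to 32.8 CPM, 0.86), Alas1, the first enzyme of haem synthesis (188 to 261 CPM, 0.47), Urod (0.59) and Hscb (0.69) were higher. Glrx5 (-0.78) and Cpox (-0.74) were lower.

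Slc25a37 is known to be abundant in red cell precursors, and markers of those cells moved with it. The summed level of 12 erythroid markers was 150 to 213 CPM in ON and 579 to 934 CPM in OFF, nearly all from 4 globin genes, and the 5 that were tested, those globins and Alas2, all rose (2.02 to 2.30). Rhag was at 0 in every library, and Epor at 0 in every ON library and at most 0.22 CPM in OFF. The part of erythroid RNA in the rise of Slc25a37 and the haem genes was not tested. In bulk libraries a change in the number of cells of a type and in the RNA per cell cannot be told apart. Myeloid markers moved as well, with 6 of 9 tested members higher and 1 lower and a summed level of 1875 to 2123 CPM in ON and 3226 to 3507 CPM in OFF. Of other cell types, Ighm (B cells, 1.70) and Gp1bb (megakaryocytes, 0.71) rose as the only tested members of their lists, with sums of 2.51 to 6.4 and 32.3 to 37.1 CPM in ON and 8.44 to 12.4 and 54.9 to 63.8 CPM in OFF. Of macrophage markers Vcam1 fell (-1.0) and Mrc1 rose (1.52), with C1qa, C1qb and C1qc at or near 0 and a sum of 39.5 to 43.2 CPM in ON and 17.8 to 24.8 CPM in OFF. The 1 tested stromal or endothelial marker did not pass (sum 6.82 to 10.5 and 8.13 to 11.9 CPM), and no T or NK cell marker was tested (sum at most 1.65 CPM).

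**Figure D2:**
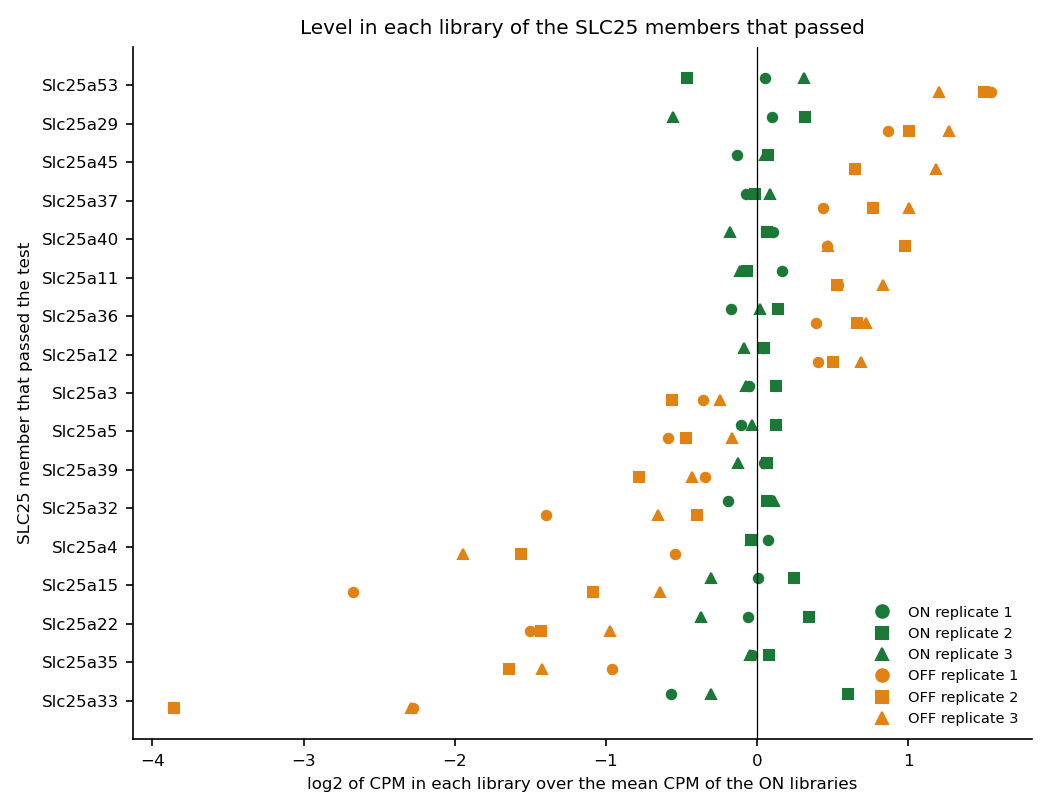
Level of the 17 members that passed the test in each library, as log2 of its CPM over the mean CPM of the ON libraries (x axis), with ON in green, OFF in orange and the replicate number by symbol. In no member do the OFF and ON libraries overlap, but the 17 were picked by a test on these same libraries. Of all 35 tested members 19 did not overlap, beside 48.3% of all tested rows. Slc25a4, Slc25a15 and Slc25a33 show a wide spread among OFF libraries.

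Of 4 tested carriers whose substrate is little known 1 fell, 2 rose and 1 did not pass. Slc25a45 (chromosome 19, 5877808 to 5885878, plus strand) rose 1.80-fold, from 17.5, 20.2 and 19.8 CPM to 30.0, 30.1 and 43.6 CPM (0.85, SE 0.16, adjusted p = 6.87e-04 by edgeR). OFF replicate 3 was the highest, and the other OFF libraries were still above every ON library. Slc25a53 (chromosome X, 136981116 to 137038302, minus strand) rose 2.68-fold at a low level, from 10, 7 and 11 counts to 29, 28 and 23 (1.42, SE 0.34, adjusted p = 0.00445 by edgeR).

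Slc25a35 (chromosome 11, 68968131 to 68974365, plus strand) fell 2.48-fold, from 9.48, 10.3 and 9.43 CPM to 5.0, 3.12 and 3.63 CPM (-1.31, SE 0.21, adjusted p = 2.83e-04 by edgeR). Its exons share 1151 bases with those of Rangrf on the opposite strand, to within 522 bases of its 3′ end. Rangrf had nearly the same level (mean 6.43 CPM against 6.82) and the same change (-1.45), so reads of the 2 genes may not be told apart and the fall of Slc25a35 is uncertain. Slc25a46, an outer membrane member linked to mitochondrial shape, gave 0.15 without passing.

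The acylcarnitine carrier Slc25a20 gave -0.14 and the uncoupling protein-like Slc25a30 and Slc25a14 -0.18 and 0.21, none passing. Family members that carry other names were outside the rule. Of these, the uncoupling protein Ucp2 rose from 30.9, 23.9 and 27.2 CPM to 38.6, 43.1 and 42.0 CPM (0.59, adjusted p = 0.00194 by edgeR), Mtch1 passed narrowly (0.34, adjusted p = 0.0426) and Mtch2 did not pass (-0.18). Without OFF replicate 2 or 3 or ON replicate 2 or 3, 1 of the 3 was called higher. Of 16 other inner membrane transport genes 2 fell and 2 rose, beside 17.5% lower and 17.3% higher among all tested rows. The serine carrier Sfxn1 (195 to 120 CPM, -0.70) and Sfxn4 (-0.86) were lower, and the sodium/calcium exchanger Slc8b1 (0.71) was among the higher. Of the 16, 1 was called lower without OFF replicate 2 or ON replicate 1 or 3, and 1 higher without OFF replicate 2 or ON replicate 1 or 2. The pyruvate carrier genes Mpc1 and Mpc2 gave -0.11 and 0.07.

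**Figure D3:**
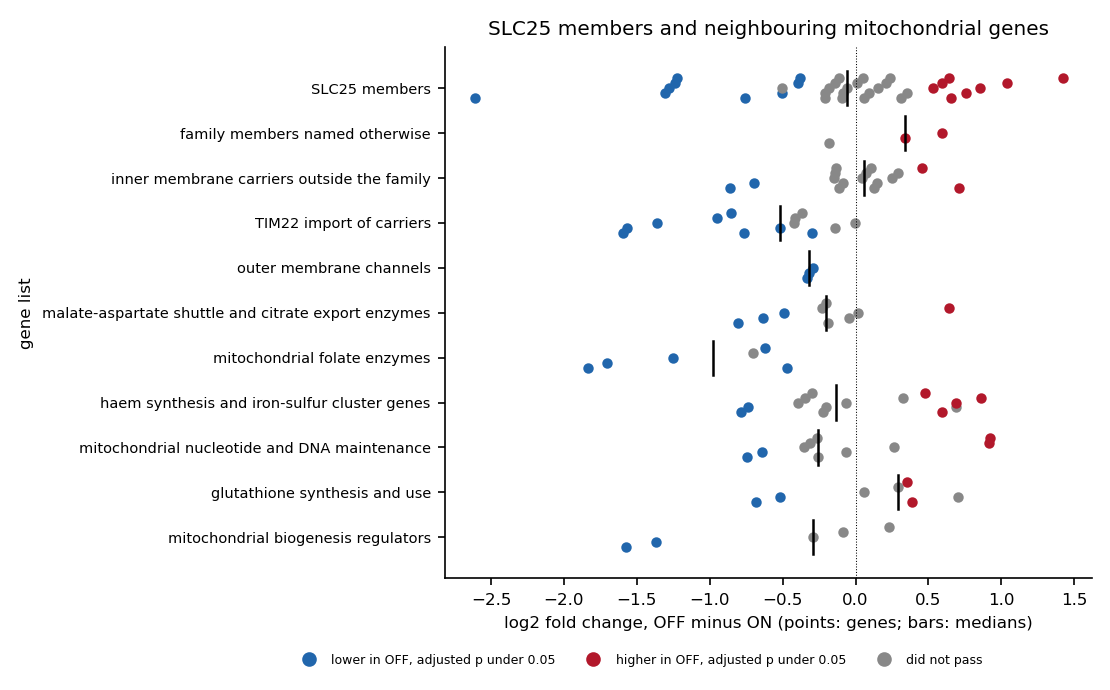
Log2 fold changes (OFF minus ON, x axis) of the 35 tested SLC25 members and of 10 lists of neighbouring mitochondrial genes (y axis); each point is a gene, coloured by the test, and black bars are medians. The list of folate enzymes, which also holds glycine cleavage genes (median -0.98), and the import genes (-0.52) lie to the left. The SLC25 members spread to both sides of 0.

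The 12 members below the filter were Slc25a2, Slc25a18, Slc25a21, Slc25a23, Slc25a27, Slc25a31, Slc25a34, Slc25a41, Slc25a43, Slc25a47, Slc25a48 and Slc25a54. Slc25a21, Slc25a41 and Slc25a48 had no count in any library, which allows at most 0.33 to 0.37 CPM each (the level of 3 counts, for counting error only). None of the others exceeded 11 counts in a library. Slc25a43 had 5, 5 and 0 counts in ON and 1 in each OFF library, and Slc25a47 had 2, 4 and 3 in ON and 8, 4 and 10 in OFF; both were too low for the test.

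**Figure D4:**
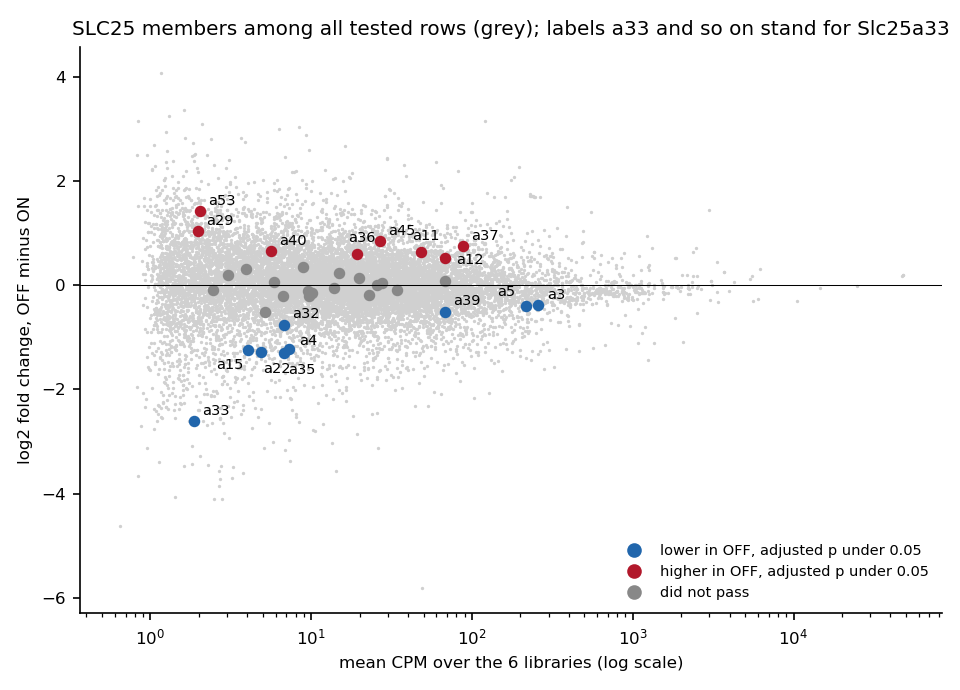
Mean CPM (x axis, log scale) against log2 fold change (y axis, OFF minus ON) for all 13652 tested rows in grey and the 35 tested SLC25 members in colour, labelled by member number where they passed. Slc25a33 at -2.61 and Slc25a53 at 1.42 are the outermost members, both near 2 CPM, and the abundant Slc25a3 and Slc25a5 lie close to -0.4.

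Pairs of paralogs with a shared substrate were compared as the log2 ratio of their counts within each library, which needs no scaling between libraries. Of 8 pairs, 4 had ratios that did not overlap between groups, beside 48.3% of all tested rows by their levels. Each of these 4 pairs holds at least 1 member that passed the test, so the ratios are not separate evidence. The ratio of Slc25a33 to Slc25a36 was -2.62, -1.77 and -2.55 in ON and -4.80, -6.44 and -5.14 in OFF, a difference of -3.15. That of Slc25a39 to Slc25a40 differed by -1.15 (4.17 ± 0.05 in ON, 3.02 ± 0.52 in OFF), that of Slc25a28 to Slc25a37 by -0.85 (-2.72 ± 0.09 and -3.57 ± 0.28) and that of Slc25a12 to Slc25a13 by 0.44 (-0.24 ± 0.20 and 0.19 ± 0.11; SD, n = 3 in each group). Each gave p = 0.1 by a two-sided exact permutation test, the smallest that 3 against 3 libraries allow, and 0.2 after Benjamini-Hochberg adjustment over the 8 pairs.

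The other 4 pairs overlapped. Slc25a4 to Slc25a5 was -4.41, -4.75 and -4.59 in ON and -4.54, -5.66 and -6.35 in OFF (difference -0.93, exact permutation p = 0.3), with OFF replicate 1 among the ON values. Slc25a24 to Slc25a25 differed by 0.47 (exact permutation p = 0.3), Slc25a16 to Slc25a42 by -0.31 (p = 0.4) and Slc25a23 to Slc25a24 by 0.19 (p = 0.6).

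**Figure D5:**
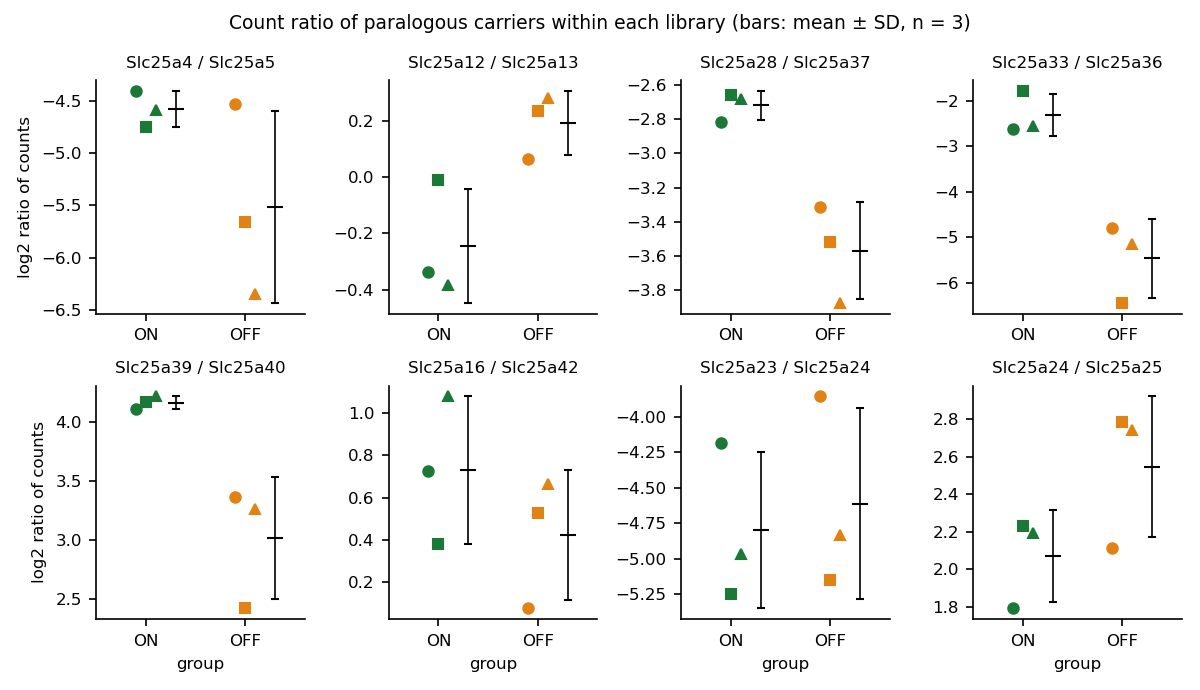
Log2 ratio of the counts of 2 paralogous carriers in each library (y axis, a scale of its own in each panel) by group (x axis; ON green, OFF orange, symbols for replicate number), with mean ± SD over 3 libraries in black. The ratios do not overlap for Slc25a33 to Slc25a36, Slc25a39 to Slc25a40, Slc25a28 to Slc25a37 and Slc25a12 to Slc25a13.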

How the data were processed

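RNA of 6 mice (3 ON, 3 OFF) was analysed from the authors' deposited table of raw counts, 54838 rows of which 1105 without a name (0.145% to 0.172% of counts) were left out. Per the submitters' processing notes the build was mm10 and the tools HISAT2 2.0.4, Subread 1.6.3 with featureCounts, cutadapt 1.9.1, FastQC 0.11.6, bcl2fastq 2.17.1.14, R 3.6.1 and limma 3.42.2. Libraries were made with a 3′ mRNA kit, per the labels' protocols, so a count is a tag near a 3′ end. The annotation, strand setting and multi-mapping rule were not given in the sources used here. A second deposited table of log2 values (12287 rows, settings not given) served as an alternative. Groups came from the sample titles.

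Rows were kept by filterByExpr (minimum count 10, minimum total 15), scaled by TMM and tested in edgeR 4.0.16 (R 4.3.3) with glmQLFit and glmQLFTest on the whole table, with Benjamini-Hochberg adjustment at 0.05; SE is the log2 fold change over the square root of F. The procedure was tested on simulated data. Paralog ratios used counts plus 0.5. Positions are from GENCODE vM21 (GRCm38), promoters from RefSeq (GRCm38.p6). Alternatives were DESeq2 1.42.0, its size factors in edgeR, other filters, removal of ribosomal RNA locus and mitochondrial rows, limma 3.58.1 on the deposited log2 table, a replicate block and the omission of each library. Members and lists were chosen with earlier results of these data known. Values in every library were planned for called members whose mean reached 5 CPM and for their paralogs, and up to 3 genes per neighbouring list with the smallest p, plus those at the step of a carrier. A few single-gene results are not reported here; the counts over members and lists include those genes.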

Additional observations from a re-analysis of the deposited data

How the results depend on the processing

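Of the 17 members that passed, 11 did so in all of the other settings in which they were tested, and none changed direction. Settings that ended a call are named in the report. Among all rows 3293 to 5444 passed on leaving out each library in turn, 4012 with DESeq2 and 4403 with a replicate block. No member that failed the main test passed elsewhere, but 6 of these 18 changed sign near 0. Slc25a24 gave -0.0129 and Slc25a16 -0.0166 by limma on the authors' log2 table, and Slc25a24 gave -0.00666 with low rows kept and -0.0120 with a replicate block. Leaving out each library gave -0.0950 to 0.204 for Slc25a24, -0.161 to 0.232 for Slc25a16, -0.202 to 0.0301 for Slc25a1, -0.487 to 0.0118 for Slc25a10, -0.317 to 0.141 for Slc25a26 and -0.0177 to 0.0898 for Slc25a44. Leaving out 1 library at a time gave 5 to 9 lower and 6 to 8 higher members, with a median of -0.0936 to 0.0878.

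Among neighbouring lists the same omissions gave 1 to 2 higher family members of other names, 1 to 2 lower and 1 to 2 higher inner membrane carriers, 0 to 3 lower outer membrane channels, 1 to 2 lower DNA maintenance genes and 0 to 3 higher glutathione genes. Replicate numbers did not pair the libraries (correlations of deviations 0.03, -0.08 and -0.05; ON replicate 2 correlated best with OFF replicate 3, at 0.09). With the replicate block all 17 members passed, 0 of 3 outer membrane channels were lower and 1 family member of another name was higher. Depth limits Slc25a33, Slc25a53, Slc25a29 and the 12 untested members, which rest on few counts.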
